A study of Mus musculus with 2 samples.

Results

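The genes described here are 41 interferon-induced genes out of the 25909 genes of a single-cell count matrix of mouse liver myeloid cells. They were taken by name from the matrix. A type I group of 12 genes holds the Ifit, Oas, Mx and Isg families (*Ifit1*, *Ifit2*, *Ifit3*, *Ifit3b*, *Isg15*, *Isg20*, *Mx1*, *Oas1a*, *Oas2*, *Oas3*, *Oasl1* and *Oasl2*). A gamma group of 12 genes holds guanylate-binding proteins and immunity-related GTPases (*Gbp2* to *Gbp7*, *Iigp1*, *Igtp*, *Irgm1*, *Irgm2*, *Tgtp1* and *Tgtp2*). The other 17 members are induced by either kind of interferon and were kept apart. All 41 had a mean level above 5 CPM (counts divided by the total of a mouse and multiplied by 1000000), the minimum used for every gene, and together they held 565606 counts, or 0.240% of all counts.

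Interferons are secreted proteins that warn cells of infection. Type I interferons act through the receptor IFNAR and a complex with STAT2 and IRF9, which binds a DNA element called ISRE, whereas interferon gamma, made mainly by T and NK cells, acts through the receptor IFNGR and the GAS element. Many genes answer to both, but products of the Ifit, Oas and Mx families are best known as effectors that sense or block viral RNA, and the GTPases of the gamma group as proteins that attack the vacuoles of intracellular microbes in macrophages.

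There were 4 mice, 1 for each diet and genotype, and values are given in this order throughout: ND control, ND Cre, CDA-HFD control and CDA-HFD Cre. A control was *Egr2*fl/fl and a Cre mouse *Lyz2*Cre/+.*Egr2*fl/fl. ND is normal diet. CDA-HFD is a high-fat diet with defined amino acids and without choline, given for 7 weeks, that causes steatohepatitis. All 4 mice carried the floxed allele of *Egr2*, a transcription factor of the early growth response family, and Cre came from the *Lyz2* locus, which is active in macrophages, monocytes and neutrophils, so that deletion was neither limited to 1 myeloid cell type nor expected in other cells. CD45.2+ CD11b+ liver cells without CD90.2, B220, NK1.1 and SiglecF were sorted, tagged with a hashtag per mouse, pooled and read in 1 library. With 1 mouse per group no difference between groups could be tested against the variation between mice, and no p-value is given. Intervals in parentheses are exact 95% Poisson or binomial intervals, or log-scale intervals for a ratio to a mean, and cover counting error only.

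After doublets named by the authors were left out, 1723, 1590, 5885 and 6186 cells remained, with 27840300 to 90124521 counts per mouse and medians of 13168 to 16459 counts per cell. The same 15384 barcodes occur in the mRNA and the hashtag data. *Egr2* itself was at 13.3, 5.85, 49.4 and 18.2 CPM. It was lower in the Cre mouse on each diet, at 0.441 times (0.366-0.530) and 0.369 times (0.349-0.391) the control level, and counts are per gene, so that transcripts lacking the deleted part are not told apart. Cells were placed in classes by markers that hold no member gene, and a class is called by the cell it resembles. Kupffer cell-like cells numbered 749 and 802 in the ND-fed mice but 4 and 11 in the CDA-HFD-fed mice, so sums over all cells mix a different set of cells on each diet. Within such sums, fewer cells of a type and less RNA per cell cannot be told apart.

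The gamma group differed more between the mice than the type I group did. Its summed level was 957 CPM (946-968) in the ND control, 552 (543-561) in the ND Cre mouse, 196 (193-199) in the CDA-HFD control and 178 (175-181) in the CDA-HFD Cre mouse. No 2 of these intervals overlap, and both ND-fed mice were above both CDA-HFD-fed mice. The ND control stood at 3.10 times (3.06-3.15) the mean of the other 3, and at 1.73, 4.89 and 5.38 times each of them in turn. Without the ND Cre mouse in that mean the ratio was 5.12, since this mouse was itself 2.82 and 3.10 times above the CDA-HFD-fed mice.

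The type I group was at 548 CPM (540-557), 618 (609-627), 431 (426-435) and 551 CPM (546-556). The ND Cre mouse was highest and the CDA-HFD control lowest, while the intervals of the ND control and the CDA-HFD Cre mouse overlap. The ND control was at 1.03 times (1.01-1.05) the mean of the others, a ratio that was below 1 with edgeR's TMM factors (0.982) and with DESeq2 size factors (0.991), so it has no fixed direction. The 17 other members summed to 2151, 2144, 1219 and 1478 CPM, with a ratio of 1.00 (0.992-1.01) between the ND-fed mice.

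Counted gene by gene, 20 of the 41 members were at least 1.5-fold higher in the ND control than in the mean of the other 3, against 6.88% of the 9917 genes above the minimum. They were 12 of 12 gamma members, 3 of 12 type I members (*Ifit1*, *Ifit3* and *Ifit3b*) and 5 of 17 others (*Irf1*, *Stat2*, *Cmpk2*, *Ifi47* and *Serpina3g*). *Isg20* alone was at least 1.5-fold lower, against 5.85% of genes. The median ratio was 3.14 over the gamma group, 0.988 over the type I group and 1.25 over the other members, beside 1.03 over all genes above the minimum. Ratios ran from 1.78 to 4.73 in the gamma group and from 0.653 to 1.86 in the type I group, so that *Irgm1*, the gamma member nearest to 1, was close to *Ifit3b*, the type I member farthest above it.

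**Figure D1:**
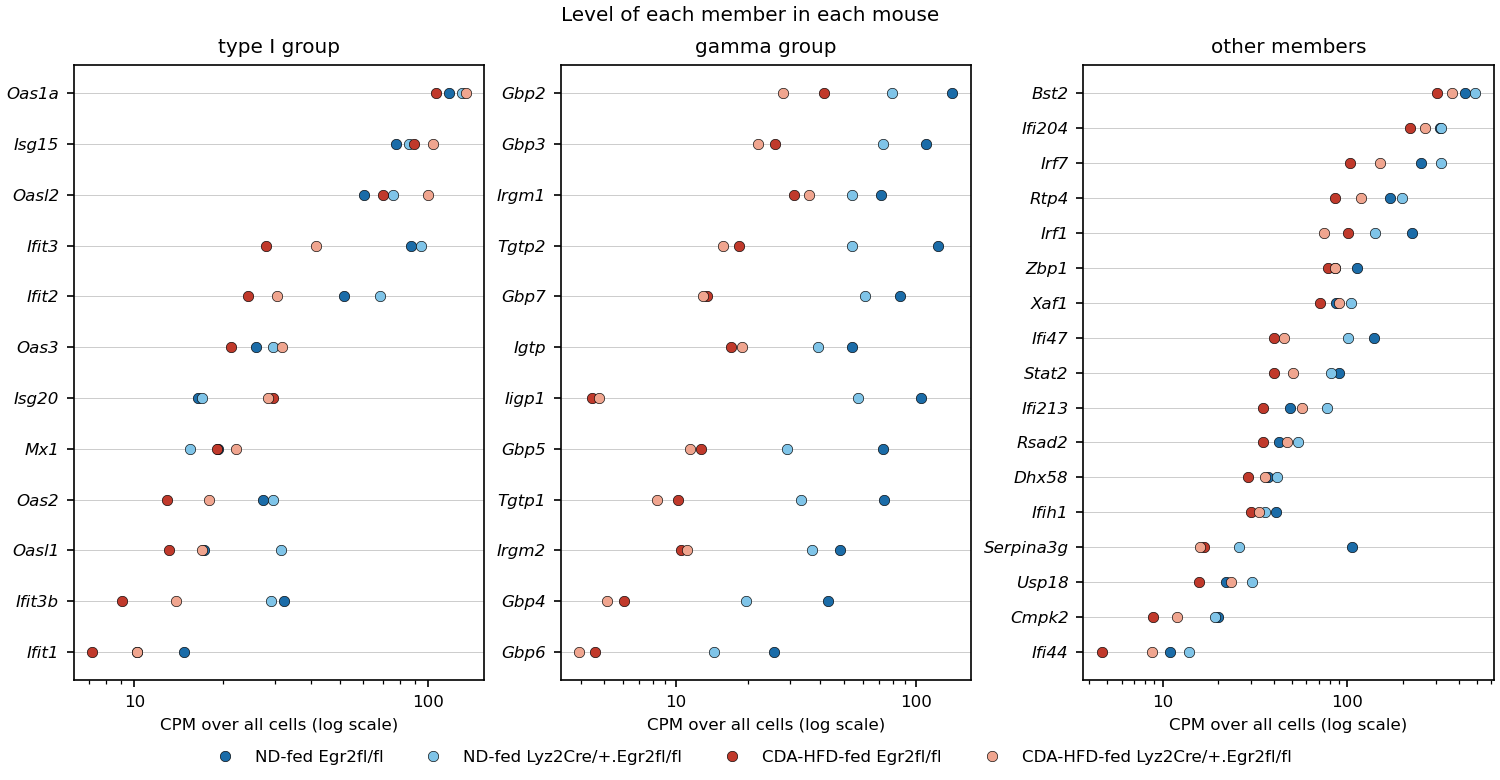
Level of each of the 41 members in each mouse, in CPM over all cells on a log axis, with 1 point per mouse and panels for the type I group, the gamma group and the other members. The ND control is the rightmost point for all 12 gamma members, whereas in the type I panel the mice change places from gene to gene.

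The guanylate-binding proteins are large GTPases that assemble on microbial vacuoles and help to activate inflammasomes. *Gbp2*, the gamma member with the most counts, was at 142 (137-146), 79.2 (75.9-82.6), 41.6 (40.3-43.0) and 28.0 CPM (26.9-29.1), and all 4 mice were apart. *Gbp3* was at 110, 73.1, 25.8 and 21.9 CPM. *Gbp5*, which acts upstream of the NLRP3 inflammasome, was at 73.3 (70.4-76.4), 29.1 (27.2-31.2), 12.7 (12.0-13.5) and 11.4 CPM (10.7-12.1). In *Gbp2*, *Gbp3* and *Gbp5* alike the ND control was highest and the ND Cre mouse came second, with ratios to the mean of the others of 2.85, 2.74 and 4.13. *Gbp4* was at 43.1, 19.6, 6.05 and 5.14 CPM, and *Gbp6* at 25.6, 14.4, 4.58 and 3.95 CPM. *Gbp7* was at 85.6, 61.2, 13.5 and 13 CPM. For these last 3 genes the intervals of the CDA-HFD-fed mice overlap, and the gaps lay between the diets and between the ND-fed mice. *Gbp6* has to be read with care, because 64.5% of the 100-base stretches of its transcripts recur in *Gm43302*, *Gbp10* or *Gbp11*.

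The immunity-related GTPases are smaller proteins of the same defence. *Iigp1*, an effector that is loaded onto vacuoles, showed the largest ratio within the gamma group, at 105 (102-109), 57.6 (54.8-60.5), 4.45 (4.01-4.92) and 4.78 CPM (4.34-5.26). The ND-fed mice differed 1.83-fold, while the intervals of the CDA-HFD-fed mice overlap. *Tgtp2* was at 124 (120-128), 54.1 (51.4-56.9), 18.4 (17.5-19.3) and 15.7 CPM (14.8-16.5), and *Tgtp1* at 73.5, 33.2, 10.2 and 8.36 CPM. Both Tgtp genes encode T cell-specific GTPases, named for where they were found, and they share 76.8% and 73.1% of their 100-base stretches, mostly with each other, so how counts were split between them is uncertain. *Irgm1*, *Irgm2* and *Igtp* encode the regulatory GTPases that keep effectors off the cell's own membranes. *Irgm1* was at 71.6 (68.7-74.5), 54.0 (51.3-56.8), 31.0 (29.8-32.2) and 35.8 CPM (34.6-37.1). *Irgm2* was at 48.5, 37.0, 10.5 and 11.1 CPM and *Igtp* at 54.2, 39.1, 17 and 18.9 CPM. These 3 regulators had the smallest differences between the ND-fed mice, from 1.31 to 1.38-fold, against 1.40 to 2.52-fold for the 9 effector and Gbp genes. *Igtp* and *Irgm2* overlap on the same strand of the genome, so reads in the overlap cannot be told apart.

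In the type I group *Oas1a*, an enzyme that makes the 2-5A messenger on binding double-stranded RNA, held the most counts and was at 118 (115-122), 130 (126-135), 106 (104-109) and 134 CPM (131-136). The ND control lay between the others, at 0.959 times their mean. Of its 100-base stretches 40.9% recur in *Oas1g*. *Isg15*, a ubiquitin-like modifier, was at 77.6 (74.6-80.8), 85.8 (82.4-89.3), 89.5 (87.5-91.6) and 104 CPM (102-107). Here the ND control was lowest and the CDA-HFD Cre mouse highest, and only the 2 middle mice overlap. *Oasl2*, an OAS-like protein, was lowest in the same mouse, at 60.4, 75.6, 69.9 and 99.7 CPM. *Oas3* was at 25.9, 29.7, 21.3 and 31.7 CPM, and *Mx1*, a dynamin-like antiviral GTPase, at 19.3, 15.5, 19.1 and 22.2 CPM.

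The products of the Ifit genes bind viral RNA that lacks the cap marks of the host, and all 4 Ifit members had both ND-fed mice above both CDA-HFD-fed mice by value, *Ifit1* by less than its counting interval. *Ifit3* was at 87.1 (83.9-90.4), 94.7 (91.1-98.4), 28.1 (27.0-29.3) and 41.4 CPM (40.1-42.7). *Ifit2* was at 51.6, 68.6, 24.3 and 30.6 CPM. For both, the ND-fed mice were above the CDA-HFD-fed mice and, within each diet, the Cre mouse was above the control. *Ifit3b*, at 32.3, 29.2, 9.08 and 13.8 CPM, shares 27.4% of its 100-base stretches with *Ifit3*, so the division of counts between this pair is uncertain. *Ifit1* was at 14.8 (13.5-16.2), 10.2 (9.05-11.5), 7.19 (6.63-7.79) and 10.2 CPM (9.52-10.8), and is the type I member with the largest excess of the ND control over the ND Cre mouse, 1.45-fold. Its level in the ND Cre mouse was 1.00 times (0.875-1.15) that in the CDA-HFD Cre mouse. *Oas2* was at 27.4, 29.6, 12.9 and 18.0 CPM. *Oasl1*, which restrains *Irf7* translation, was at 17.2, 31.6, 13.1 and 17 CPM, with the ND Cre mouse above the rest. *Isg20*, an RNA exonuclease, ran the other way by diet, at 16.4, 17, 29.6 and 28.5 CPM.

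**Figure D2:**
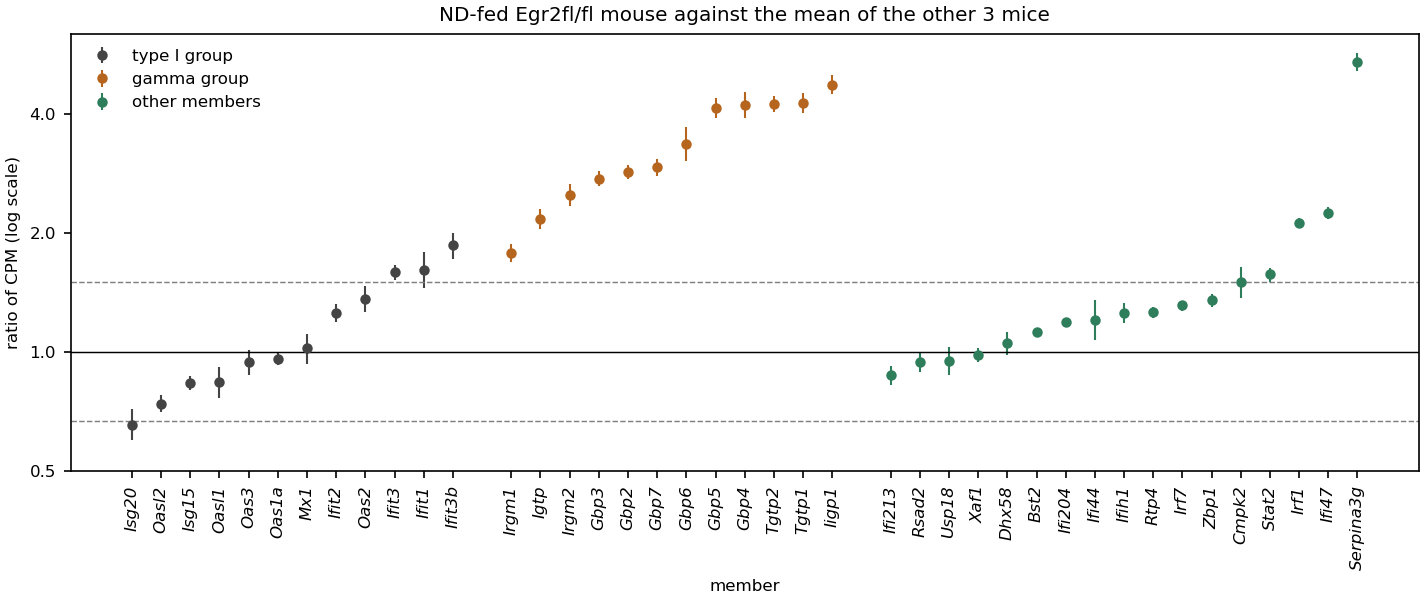
Ratio of the CPM of the ND control to the mean CPM of the other 3 mice for each member, on a log axis with 95% counting intervals, sorted within the 3 groups. Dashed lines mark 1.5-fold in either direction, and all 12 gamma members lie above the upper line, from 1.78 to 4.73, while 8 of 12 type I members lie between the lines.

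Among the other members, *Serpina3g* and *Irf1* had the same order of mice as the summed gamma group. *Serpina3g*, a serine protease inhibitor of activated T cells and macrophages, was at 106 (102-110), 26.0 (24.2-28.0), 16.8 (15.9-17.7) and 16.0 CPM (15.2-16.9). Its ratio of 5.40 was the highest of all members. *Irf1*, the transcription factor through which interferon gamma drives many Gbp genes, was at 224 (219-229), 141 (137-146), 101 (98.7-103) and 74.6 CPM (72.8-76.4), with all 4 mice apart. *Ifi47*, another immunity-related GTPase, was at 139, 101, 39.9 and 45.2 CPM. *Irf7*, the factor that amplifies type I interferon production, was instead highest in the ND Cre mouse, at 249 (244-255), 320 (314-327), 103 (101-106) and 150 CPM (147-152). *Bst2*, a membrane protein that tethers budding virions, had the most counts of all members and was at 433, 491, 305 and 369 CPM. *Rtp4*, at 169, 198, 86.0 and 119 CPM, followed the same order as *Bst2* and *Irf7*. *Ifi204*, a DNA sensor of the p200 family, was at 318 (312-325), 322 (315-328), 219 (216-223) and 263 CPM (260-266), so the ND-fed mice overlap. *Zbp1*, a sensor of Z-form nucleic acid that triggers necroptosis, was at 112, 86.1, 78.9 and 85.2 CPM, and *Xaf1*, a pro-apoptotic protein, at 86.9, 104, 71.4 and 89.5 CPM. The remaining 8 members were *Rsad2* and *Cmpk2*, enzymes of nucleotide metabolism, *Stat2*, a part of the type I complex, *Usp18*, which removes ISG15 from proteins, the RNA sensors *Ifih1* and *Dhx58*, and *Ifi44* and *Ifi213*. They ran from 11.0 CPM (*Ifi44*) to 89.5 CPM (*Stat2*) in the ND control, with ratios from 0.871 (*Ifi213*) to 1.57 (*Stat2*).

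Compared with the ND Cre mouse alone, the ND control was at least 1.5-fold higher in 8 of 12 gamma members, 0 of 12 type I members and 2 of 17 others, *Irf1* and *Serpina3g*, against 2.09% of genes. These 10 genes were also at least 1.5-fold higher than in each of the 3 other mice, a pattern found in 0.655% of genes. *Oasl1* and *Ifi213* were at least 1.5-fold lower than in the ND Cre mouse, against 2.43% of genes. Both ND-fed mice were above both CDA-HFD-fed mice in 12 of 12 gamma members, 6 of 12 type I members and 13 of 17 others, against 51.4% of genes. With TMM or DESeq2 scaling the last 2 of these counts were 4 and 10, and the gamma count stayed at 12.

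Members of a family often lie side by side in the genome. In the GRCm38 annotation *Gbp2*, *Gbp3*, *Gbp5* and *Gbp7* lie within chr3:142493978-142638008, *Igtp* and *Irgm2* within chr11:58199556-58222782, and the 4 Ifit members within chr19:34550694-34650009. Promoter letters of the members were read beside their levels. RefSeq promoters (GRCm38.p6) were at hand for 31 of the 41 members, among them 10 type I and 9 gamma genes, and *Mx1*, *Oas2*, *Usp18*, *Dhx58*, *Zbp1*, *Gbp4*, *Gbp6*, *Iigp1*, *Ifi204* and *Rtp4* had none. In the 250 bases before each start, both strands were searched for the ISRE core GAAANNGAAA and the GAS core TTCNNNGAA, which may overlap. The ISRE letters were present in 9 of 9 gamma, 6 of 10 type I and 4 of 12 other members, against 3.46% of the promoters of 27025 genes. The GAS letters were present in 6 of 9, 3 of 10 and 3 of 12, against 8.13%. Both occurred together in 8 of the 31 members, 6 of them gamma genes, against 0.400% of all genes. In *Tgtp2*, *Tgtp1*, *Igtp* and *Irgm2*, all on chromosome 11, an ISRE began 11 bases after the start of a GAS, an arrangement noticed after the search and seen in 5 of the 27025 genes. A match describes letters and is not evidence that a factor bound. The stretches below, each read 5′ to 3′ on the strand of its gene with the matching letters in capitals, show this joint arrangement first, at chr11:49064260-49064319 on the minus strand, chr11:48992301-48992360 on the minus strand, chr11:58199485-58199544 on the plus strand and chr11:58214876-58214935 on the plus strand:
Tgtp2: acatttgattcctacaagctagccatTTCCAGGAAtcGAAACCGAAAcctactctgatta
Tgtp1: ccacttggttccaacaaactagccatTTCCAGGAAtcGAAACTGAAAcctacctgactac
Igtp: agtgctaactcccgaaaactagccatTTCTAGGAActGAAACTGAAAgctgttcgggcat
Irgm2: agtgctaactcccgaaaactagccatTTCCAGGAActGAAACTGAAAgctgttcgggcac
For contrast, *Gbp2* (chr3:142620579-142620638 on the plus strand) and the type I members *Isg15* (chr4:156200850-156200909 on the minus strand) and *Ifit1* (chr19:34640779-34640838 on the plus strand) held ISRE letters without GAS letters, whereas *Irf1* (chr11:53769898-53769957 on the plus strand) and *Serpina3g* (chr12:104236087-104236146 on the plus strand), at 2.12 and 5.40 times the mean of the other mice in the ND control, held GAS letters without ISRE letters. So did *Ifit2* and *Isg20*, at 1.25 and 0.653 times that mean, whose stretches are not shown:
Gbp2: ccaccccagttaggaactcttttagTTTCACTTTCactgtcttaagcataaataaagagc
Isg15: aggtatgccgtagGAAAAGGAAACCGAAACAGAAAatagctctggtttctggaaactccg
Ifit1: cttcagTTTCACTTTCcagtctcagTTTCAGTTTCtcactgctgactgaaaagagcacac
Irf1: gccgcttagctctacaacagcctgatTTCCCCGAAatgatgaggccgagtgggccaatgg
Serpina3g: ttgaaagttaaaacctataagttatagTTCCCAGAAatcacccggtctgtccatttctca
ISRE letters therefore do not separate the 2 groups, since they stand before the gamma gene *Gbp2* and the type I gene *Isg15* alike, and neither do GAS letters, which *Gbp2* and *Irgm1* lacked in this window.

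The genotype comparison separated the groups in another way. On CDA-HFD the Cre mouse was above the control in 11 of 12 type I members (*Isg20* excepted), 15 of 17 others and 4 of 12 gamma members, against 63.8% of genes. The median ratio was 1.35 over the type I group, 1.25 over the others and 0.880 over the gamma group, beside 1.03 over all genes. The summed type I level was 1.28 times (1.26-1.30) and the summed gamma level 0.908 times (0.889-0.928) that of the control. Most steps were small. *Ifit3b*, *Ifi44* and *Ifi213* reached 1.5-fold, at 1.52, 1.86 and 1.62, against 1.62% of genes. Heat-shock transcripts differed between the same 2 mice, with *Hspa1a* at 940 and 274 CPM, and their part in these ratios was not tested.

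On ND the Cre mouse was above the control in 9 of 12 type I, 10 of 17 other and 0 of 12 gamma members, against 58.9% of genes. The summed type I level was 1.13 times (1.10-1.15) and the summed gamma level 0.576 times (0.565-0.588) that of the control. Summed over all cells, the type I ratio thus lay above 1 on both diets and the gamma ratio below 1 on both. *Ifit1*, *Ifit3b* and *Mx1* went the other way on ND, at 0.691, 0.905 and 0.806 times the control, as did the type I sum within Ly6Chi monocyte-like cells, at 0.444 times. On CDA-HFD the gamma sum within Ly6Chi monocyte-like cells went the other way, at 1.06 times (1.01-1.11) the control. That ratio was below 1 by value in every other class compared on this diet. A ratio below 1 on ND and above 1 on CDA-HFD, with neither counting interval reaching 1, was found for 9 of the 41 members and for 6.29% of genes. Whether the genotype ratios differ between diets could not be tested with 1 mouse per group.

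**Figure D3:**
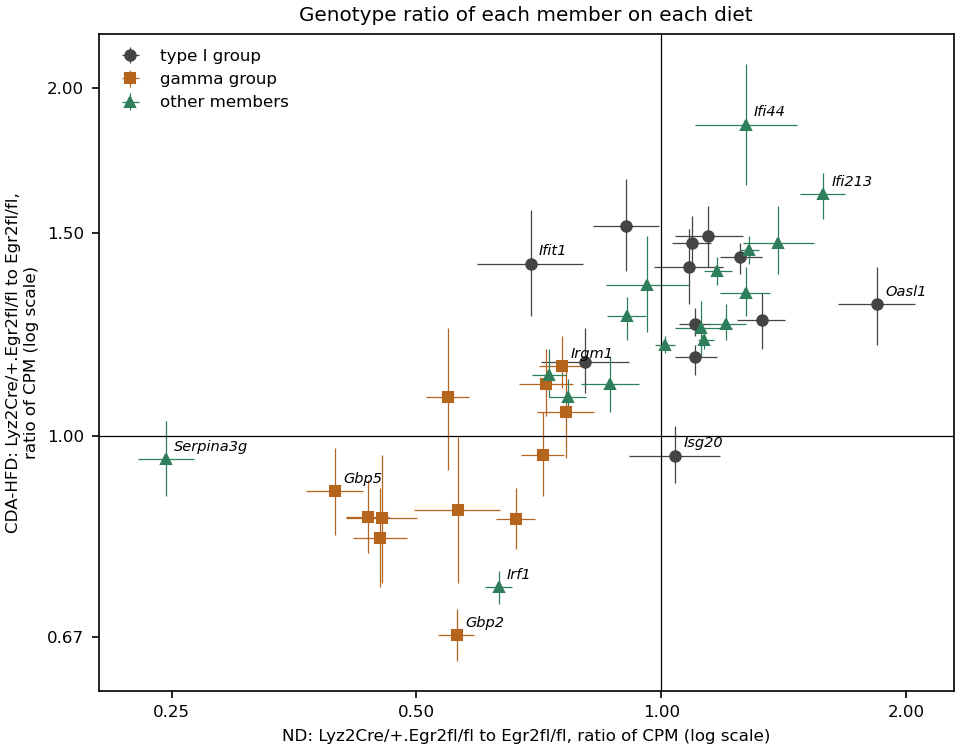
Ratio of the Cre to the control for each member on ND (horizontal) and on CDA-HFD (vertical), both on log axes with 95% counting intervals, marked by group. All 12 gamma members lie left of 1 on the ND axis and 8 of them below 1 on the CDA-HFD axis, and 11 of 12 type I members lie above 1 on the CDA-HFD axis.

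In Kupffer cell-like cells, the resident macrophages of liver sinusoids, which were compared between the ND-fed mice only, the gamma group differed more than the type I group, and in the opposite direction. The 9 markers that placed cells in this class were detected in 38.3% (*Marco*) to 99.9% (*Clec4f*) of its cells, with *Vsig4* and *Cd5l* at 99.1% and 99.7%. These shares are no independent check of the class. Summed gamma levels were 948 CPM (934-962) in the control and 595 (584-606) in the Cre mouse, and summed type I levels 589 (578-600) and 684 CPM (672-696). The first ratio was 1.59 and the second 0.861, with no overlap of intervals in either. All 12 gamma members were higher in the control, against 4 of 12 type I members and 40.0% of genes, and 7 gamma members were at least 1.5-fold higher, against 1.61% of genes. *Iigp1* was at 145 and 78.5 CPM, *Tgtp2* at 124 and 51.0, and *Gbp5* at 57.9 and 27.3. *Gbp2* was nearly level, at 70.9 and 66.2 CPM. *Serpina3g* had the widest gap, at 95.5 and 12.7 CPM, and *Irf1* was at 234 and 139 CPM. For the type I members *Ifit3* and *Oas1a* the levels were 114 and 120, and 146 and 156 CPM.

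The gamma difference in Kupffer cell-like cells was spread over the cells. The median cell had 793 CPM of the gamma group in the control and 466 in the Cre mouse, and the highest 10% held 29.9% and 31.5% of gamma counts. For the type I group the medians were 494 and 513 CPM. In the control 20 of 75 cells (26.7%) in the highest 10% for 1 group were also in that of the other. In the Cre mouse 26 of 80 cells (32.5%) were. Unrelated sets would share about 10%. The Spearman correlation of the 2 groups over cells was 0.293 in the control and 0.305 in the Cre mouse. Both groups are scaled to the same cell total, so this overlap and correlation are only a description.

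**Figure D4:**
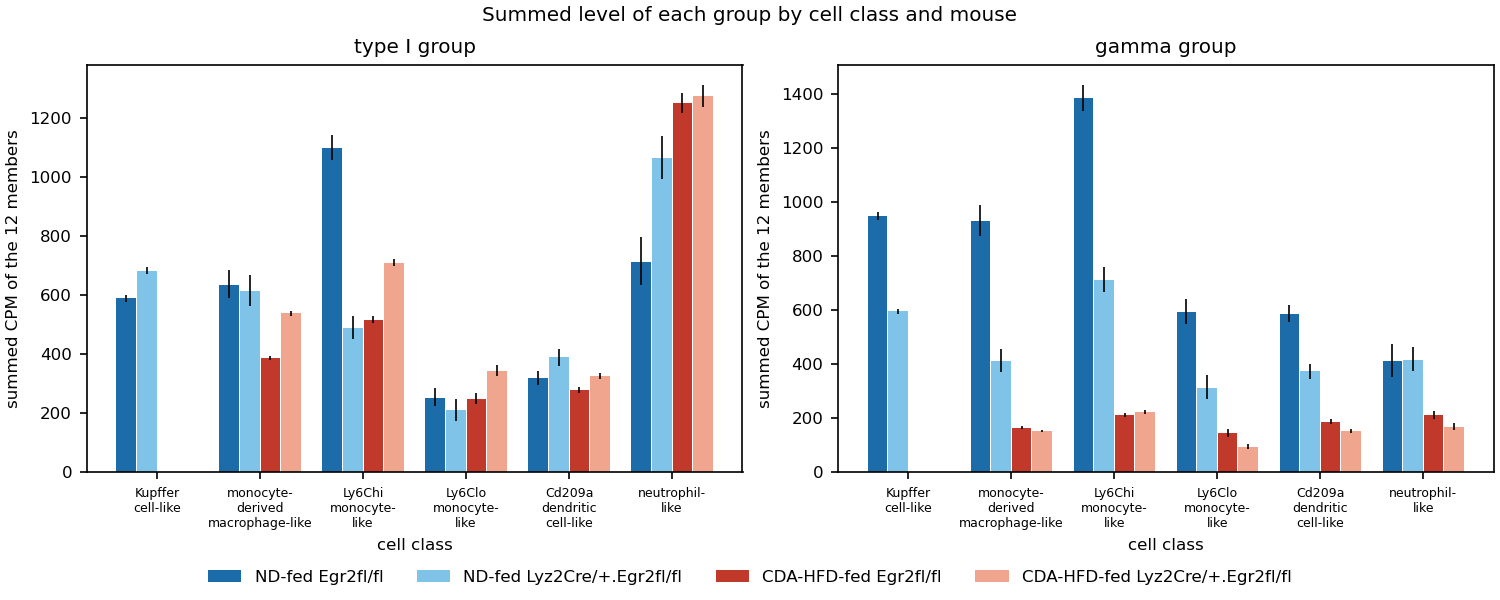
Summed level of the type I group (left) and the gamma group (right) in CPM by cell class and mouse, as bars from 0 with 95% counting intervals. The gamma bars of the ND control are the highest except in the neutrophil-like class, and the type I bars are high in the neutrophil-like class of 3 mice and in the Ly6Chi monocyte-like class of the ND control; Kupffer cell-like bars exist for ND only.

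Ly6Chi monocyte-like cells, the recruited blood monocytes (167, 95, 1265 and 1447 cells), had the highest type I ratio of the classes. The type I level was 1101 CPM (1059-1145), 489 (451-529), 517 (506-528) and 711 CPM (699-723), and the gamma level 1387 (1340-1436), 713 (667-761), 211 (204-218) and 222 CPM (216-229). The ND control was at 1.92 times the mean of the others for type I and 3.63 times for gamma. Both groups had 12 of 12 members above the ND Cre mouse, against 47.9% of genes. *Rsad2*, an enzyme that makes a chain-terminating nucleotide, was at 216, 14.3, 28.8 and 52.7 CPM. *Ifit1* was at 72.2, 1.59, 7.83 and 14.8 CPM and *Gbp2* at 411, 220, 43.9 and 41.2 CPM. The *Ifit1* level of the ND Cre mouse rests on few counts, since its summed type I level of 489 CPM was made up of 615. The type I level rested on few cells, since the highest 10% of the 167 cells held 67.4% of type I counts, and the median cell had 364 CPM in this mouse against 401 in the CDA-HFD Cre mouse. Without the 1% of cells with the highest type I share, an alternative chosen after seeing the data, the type I ratio was 1.58. The highest 10% of this mouse's cells held 53.1% of its gamma counts. In the other 3 mice gamma counts were the more concentrated, with 65.7%, 56.7% and 56.4% in the highest 10% of cells against 43.9%, 47.1% and 44.6% for type I. The median cell had 476, 220, 71.6 and 73.8 CPM of gamma counts.

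**Figure D5:**
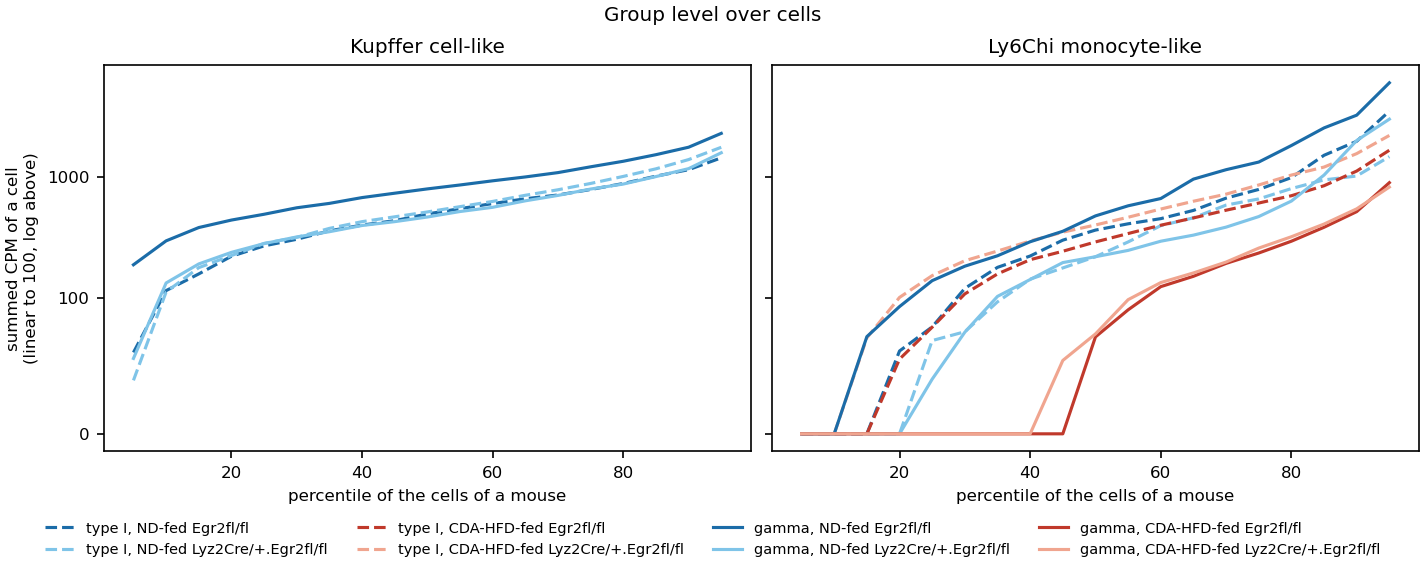
Summed CPM per cell of the type I group (dashed) and the gamma group (solid) at the 5th to 95th percentile of the cells of each mouse, in Kupffer cell-like (left) and Ly6Chi monocyte-like cells (right), on an axis that is linear to 100 CPM and logarithmic above. In Kupffer cell-like cells the gamma line of the control runs above that of the Cre mouse with medians of 793 and 466 CPM, and in Ly6Chi monocyte-like cells the type I lines lie between 220 and 401 CPM at the median and reach 3448 CPM at the 95th percentile in the ND control.

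In monocyte-derived macrophage-like cells (81, 68, 1342 and 1383 cells) the gamma group was at 930 CPM (873-990), 412 (371-457), 164 (160-169) and 151 CPM (147-156), 3.83 times the mean of the others. The type I group was at 636 (589-686), 615 (564-669), 388 (381-395) and 539 CPM (530-547), with the ND-fed mice overlapping. *Gbp2* was at 161, 47.7, 26.9 and 12.6 CPM and *Serpina3g* at 119, 4.54, 11.7 and 12.0 CPM. The *Serpina3g* level of the ND Cre mouse rests on few counts, since its summed gamma level of 412 CPM was made up of 363. This class is less alike across diets than its name, because its cells had a median of 9193 and 9936 counts on ND and 21141 and 18969 on CDA-HFD. A single cluster led by *Olfml3*, *Ms4a7* and *Tmem119* held 82.7%, 95.6%, 59.3% and 66.0% of them, and a second, led by *Mmp12*, 25.6% and 18.9% on CDA-HFD. With classes taken from clusters made without interferon genes the gamma ratio was 1.96 in place of 3.83, and without 152 cells of an unnamed cluster, 109 of them from the ND control, it was 2.32. That cluster was led by *Ly6i*, *Cxcl9*, *Cfb* and *Gbp2*, and its 10 leading genes include the 3 members *Gbp2*, *Serpina3g* and *Gbp5*, so their level in it is no independent measure. Its gamma level in the 4 mice was 2563, 2113, 2226 and 1713 CPM, and it held 17.1% of the gamma counts of the ND control, without which the gamma ratio over all cells was 2.82.

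In Ly6Clo monocyte-like cells, the patrolling monocytes (131, 77, 328 and 399 cells), the gamma group was at 594 (547-643), 312 (269-360), 144 (131-158) and 93.7 CPM (84.6-104) and the type I group at 252 (223-285), 209 (174-249), 249 (232-267) and 343 CPM (326-362). All 4 gamma intervals were apart, and the type I intervals of the first 3 mice overlap. In Cd209a dendritic cell-like cells (133, 107, 659 and 617 cells), antigen-presenting cells, the gamma group was at 586, 373, 187 and 151 CPM and the type I group at 318, 389, 277 and 326 CPM. *Serpina3g* was highest in the ND Cre mouse in the Ly6Clo monocyte-like class, at 20.5, 68.1, 5.56 and 2.19 CPM. In the monocyte-derived macrophage-like class above it was lowest in that mouse, on few counts. The ratio of the ND control to the mean of the others was 3.24 for gamma and 0.944 for type I in Ly6Clo monocyte-like cells. It was 2.47 and 0.961 in Cd209a dendritic cell-like cells. Class levels of each member were ranked among these 2 classes and the Kupffer cell-like (ND only), monocyte-derived macrophage-like, Ly6Chi monocyte-like and neutrophil-like classes. Within this ranking *Tgtp2* was highest in Cd209a dendritic cell-like cells in all 4 mice, at 153, 84.2, 41.7 and 38.2 CPM. Mature dendritic cell-like cells were not ranked, although their summed gamma level on CDA-HFD was 371 CPM in the control and 339 in the Cre mouse.

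Neutrophil-like cells (107, 191, 871 and 720 cells) had another order of mice. Their type I level was 712 CPM (635-797), 1066 (996-1140), 1252 (1217-1288) and 1277 CPM (1239-1315), lowest in the ND control at 0.595 times the mean of the others. *Rsad2* was at 81.2, 302, 302 and 358 CPM and *Isg15* at 158, 246, 415 and 379 CPM. Among the ranked classes named above, 4, 7, 9 and 9 of the 12 type I members had their highest class level here in the 4 mice. Within that ranking *Isg20*, *Oas3*, *Oasl1* and *Oasl2* were highest here in all 4. The gamma level was 411 (352-476), 416 (373-463), 210 (196-225) and 167 CPM (154-182), so the ND-fed mice overlap. These cells had the fewest counts, with medians of 3808 to 4077. The 2777 cells that no marker list claimed had a gamma level of 1611, 544, 233 and 201 CPM and a type I level of 440, 468, 414 and 518 CPM.

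Set side by side, the members at least 1.5-fold higher in the ND control than in the mean of the others numbered 12 of 12 gamma and 6 of 12 type I in monocyte-derived macrophage-like cells (17.7% of genes) and 12 and 7 in Ly6Chi monocyte-like cells (10.2%). They numbered 9 and 2 in Ly6Clo monocyte-like cells (16.7%), 10 and 2 in Cd209a dendritic cell-like cells (10.9%), and 5 and 0 in neutrophil-like cells (20.6%). On CDA-HFD the Cre mouse was above the control in 12 type I and 5 gamma members of the monocyte-derived macrophage-like class (59.2% of genes) and in 11 and 7 of the Ly6Chi monocyte-like class (55.9%). The counts were 11 and 2 in the Ly6Clo monocyte-like class (53.7%), 10 and 1 in the Cd209a dendritic cell-like class (55.0%), and 9 and 4 in the neutrophil-like class (54.8%). The summed type I level of the CDA-HFD Cre mouse was 1.39, 1.37, 1.38 and 1.17 times that of the control in the first 4 of these classes. In neutrophil-like cells the ratio was 1.02 (0.978-1.06), an interval that reaches 1. All 5 classes come from the same mice. The counts of members are out of all 12 of a group, whereas the shares in brackets are of genes that averaged at least 5 CPM in the class. In the first 2 classes all 12 members of each group passed that minimum. In the Ly6Clo monocyte-like class 10 gamma and 10 type I members passed it, of which 9 and 1 were at least 1.5-fold higher in the ND control, and 1 and 9 were higher in the CDA-HFD Cre mouse than in its control. In the Cd209a dendritic cell-like class 10 and 11 passed, with counts of 8 and 2, and of 1 and 9. In the neutrophil-like class 10 and 11 passed, with counts of 5 and 0, and of 3 and 8.

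At least 1 gamma count was found in 84.3%, 79.4%, 50.9% and 52.6% of cells and at least 1 type I count in 81.4%, 81.1%, 75.5% and 81.8%. With every cell thinned to 3000 counts the gamma shares were 68.8%, 57.6%, 28.3% and 27.6% and the type I shares 57.7%, 60.9%, 50.9% and 58.7%. The gamma shares kept their split by diet, and the type I shares had the CDA-HFD control lowest either way. The unthinned gamma share of the neutrophil-like class was 24.6% to 32.7% of cells. After thinning it was 24.3% and 21.5% in the CDA-HFD-fed mice, where the Ly6Clo monocyte-like class was at 22.0% and 18.5%.

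Other genes of the pathway, from lists of receptors, signalling genes, sensors and further induced genes, were counted in the same way. In the ND control the 4 receptor chains were within 1.5-fold of the mean of the others. *Ifngr1* was at 410, 407, 250 and 325 CPM. Among the signalling genes *Socs1*, an inhibitor of interferon signalling, was at 13.6, 6.21, 5.85 and 5.24 CPM, highest in the ND control. *Socs3* was lower in the ND-fed mice, at 17, 12.2, 55.5 and 56.5 CPM, and *Jak1*, *Jak2*, *Tyk2* and *Irf9* were within 1.5-fold. Of 16 further gamma-induced genes above the minimum, 9 were at least 1.5-fold higher and 0 lower in the ND control than in the mean of the others, with a median ratio of 1.71, against 6.88% of all genes higher. *Cxcl9*, a chemokine for T cells, was at 221, 57.8, 41.8 and 31.5 CPM and *Gbp2b* at 225, 101, 1.20 and 1.59 CPM. Of 19 further type I-induced genes 1 was higher by this rule, *Ifi205*, with a median ratio of 1.06. All 19 were higher by any amount in the CDA-HFD Cre than control, against 63.8% of all genes. Of 7 nucleic acid sensors and adaptors, *Mavs* and *Tlr3* were at least 1.5-fold higher, again against 6.88% of all genes. *Ifng* itself had 37, 22, 81 and 57 counts, 121 of the 197 in cells of the T and NK cell-like class. Scaled to the total of each mouse, *Ifng* was highest in the ND control, at 1.16 CPM, and lowest in the CDA-HFD Cre mouse, at 0.632 CPM. These levels rest on few counts and lie below the minimum of 5 CPM. Genes for type I interferons were not analysed here.

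T and NK cells, which the sort should have removed, followed the gamma level from mouse to mouse. The 10 T and NK cell markers, all detected in all 4 mice, summed to 254, 147, 39.5 and 32.5 CPM, highest in the ND control and lowest in the CDA-HFD Cre mouse. Cells of this class made up 3.02%, 1.64%, 0.459% and 0.436% of each mouse, and without them the gamma ratio was 3.11. Whether their number bears on the gamma level of the other cells was not tested. B and plasma cell markers summed to 134, 191, 24.5 and 33.8 CPM, highest in the ND Cre mouse. Endothelial markers (5 of 5 detected in all mice) summed to 179, 330, 25.8 and 52.1 CPM, and hepatocyte markers to 68.6, 181, 52.7 and 42.8 CPM with 6, 7, 7 and 7 of 7 detected and *Alb* at 0 in the ND control. The 8 dissociation and heat-shock genes had a median ratio of 0.426 and 6 were at least 1.5-fold lower in the ND control, against 5.85% of all genes. Their part in the results was not tested.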

How the data were processed

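Sorted CD11b+ liver cells of 4 mice were hashtagged, pooled, loaded at 3000, 3000, 9000 and 9000 cells on a BD Rhapsody device and amplified by TAS-Seq. Per the labels and methods the authors aligned the reads to GRCm38, kept barcodes above an inflection point, assigned them by hashtag and deposited whole-number counts per gene and barcode; Seurat 4.1.1 and R 4.2.1 stand in the submitters' processing notes. Whether reads or molecules were counted is not given in the sources used here. In giving the cells loaded, the labels' protocol writes A964 where the tag list of the sample has A954 for the CDA-HFD Cre mouse. The hashtag table holds both, and cells were assigned to this mouse by A954, the name in the deposited cell names. The 7 hashtag columns of other tags were left unused.

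From the deposited counts, barcodes named doublets (1392) and cells above 25% mitochondrial counts were left out, and counts were summed per mouse, and per mouse and class, as CPM. A class needs 50 cells in a mouse. Levels have exact Poisson and ratios exact binomial 95% intervals, a ratio to a mean has an interval from the counting variance on the log scale, and shares have Clopper-Pearson intervals. PCR copies are not independent molecules, so these cover counting error only. A gene entered the counts of genes at a mean of at least 5 CPM, and 1.5-fold in either direction was the fold used. Cells were classed by a score for each marker list. It is the mean over markers of the log-scaled level, divided by the 75th percentile of the marker's nonzero values and capped at 1. A cell needed at least 3 markers detected, a score of at least 0.3 and a lead of 0.1 over the next list. Unassigned cells numbered 2777 (18.1%), and 3069 cells (19.9%) lay within 0.05 of a limit. Clusters (scanpy 1.11.5, 50 components, resolution 1, member genes left out) served as an alternative. Their naming rule, which asked for a marker among the 10 leading genes, was completed after clusters were seen. Scrublet marked 58 of 15384 cells (0.377%), too few to have worked, so the 5% of cells with the highest scores were left out as an alternative.

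Members, lists and tests were chosen with earlier results of these data known. Members were described in full when they were among the most abundant of their group or at least 1.5-fold higher in the ND control than in each other mouse, and the rest in brief. No test between groups was possible with 1 mouse each. TMM factors came from edgeR 4.0.16 and size factors from DESeq2 1.42.0 (R 4.3.3), used for scaling only. Other analyses used Python 3.11.15 and scipy 1.17.1. The scripts were tested on simulated data. A gene of the signalling list is not reported here.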

Additional observations from a re-analysis of the deposited data

Results flagged for a closer look

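The ratio of the Cre to the control lay below 1 on ND and above 1 on CDA-HFD, with neither counting interval reaching 1, for 9 of the 41 members, against 6.29% of genes, and for both groups in Ly6Chi monocyte-like cells. The difference between the diets was not tested in any of them, since each diet and genotype had 1 mouse. In the type I group the ratios on ND and CDA-HFD were 0.691 and 1.41 for *Ifit1*, 0.905 and 1.52 for *Ifit3b*, and 0.806 and 1.16 for *Mx1*. In the gamma group they were 0.722 and 1.11 for *Igtp* and 0.755 and 1.15 for *Irgm1*, 2 of the regulatory GTPases. Among the other members they were 0.907 and 1.27 for *Stat2*, 0.865 and 1.11 for *Ifih1*, 0.767 and 1.08 for *Zbp1*, and 0.728 and 1.13 for *Ifi47*. In Ly6Chi monocyte-like cells the ratios were 0.444 (0.406-0.485) and 1.37 (1.34-1.41) for the summed type I group and 0.514 (0.477-0.554) and 1.06 (1.01-1.11) for the summed gamma group. The 2 ND-fed mice had 167 and 95 cells in this class.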

How the results depend on the processing

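The type I ratio of the ND control to the mean of the others, 1.03, had no stable side of 1. It was 0.982 with TMM factors, 0.991 with DESeq2 size factors and 0.928 as a mean over cells of each cell's CPM. It was 1.05 without *Oas1a*, 1.05 with cell classes weighted equally, 1.00 without Kupffer cell-like cells, and 0.938 to 1.12 when each other mouse was left out in turn. The gamma ratio, 3.10, stayed above 2.5 throughout. It was 3.04 with TMM factors, 2.95 as a mean over cells, 3.21 without the 1% of cells with the highest share, 3.15 without *Gbp2*, 3.04 at a hashtag purity of at least 90%, 2.98 with classes weighted equally, 3.47 without Kupffer cell-like cells, 2.82 without the unnamed cluster led by *Ly6i*, and 2.56 to 5.12 with a mouse left out. The median over 5 classes was 0.961 for type I and 1.11 without the top 1% of cells. For gamma it was 3.24, 2.55 with clusters as classes and 2.43 without the unnamed cluster. Members past 1.5-fold numbered 21, and 15 to 26 over the 10 alternatives that kept this fold, and 14 were past 2-fold. Type I members among the 21 numbered 4. They were 6 without the ND Cre mouse in the mean, 0 without the CDA-HFD control and 2 without the CDA-HFD Cre mouse. Gamma members stayed at 12 each time. Shares of cells with a count after thinning to 3000 counts were 57.7%, 60.9%, 50.9% and 58.7% for type I and 68.8%, 57.6%, 28.3% and 27.6% for gamma. The cause of these shifts was not tested. The alternatives that leave out a mouse, a cluster or a class, and those that leave out the top 1% of cells within classes, were added after seeing the data. No paired analysis was possible because each group was a single mouse. Depth limits classes of few cells on ND and leaves low genes such as *Ifng* undecided.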

Other observations

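The 1392 barcodes that the authors named doublets, which entered no comparison, had a type I level of 540 CPM (531-548) and a gamma level of 398 CPM (391-405). Mature dendritic cell-like cells reached 50 cells in the CDA-HFD-fed mice only. Their gamma level was 371 CPM (344-400) in the control and 339 (310-370) in the Cre mouse, and their type I level 253 (231-277) and 395 CPM (363-428), and *Mx1* was at 116 and 119 CPM. The 52 T and NK cell-like cells of the ND control had a gamma level of 867 CPM and a type I level of 258 CPM.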
